A study of Mus musculus with 6 samples.

Results

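The nuclear genes for the protein complexes of oxidative phosphorylation were followed in N18-Fms cells stimulated or not by CSF-1. They were chosen by name, as every gene on the array whose name starts with Ndufa, Ndufb, Ndufc, Ndufs, Ndufv, Uqcr, Atp5, Cox4, Cox5, Cox6, Cox7 or Cox8, or is Sdha to Sdhd or Cyc1. The rule named 91 genes of the 36028 with a usable probe, and 87 of them, each read by its brightest probe, were well above background on all 6 arrays. These 87 genes are the ones counted below, 41 of complex I, 4 of complex II, 9 of complex III, 16 of complex IV and 17 of complex V. Of the 4 genes left out, Cox8b and Cox8c were well above background on 0 arrays, Cox7b2 on 1 and Ndufa4l2 on 2.

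N18-Fms cells, called N18-CFMS in the labels, derive from a clonal epithelial line of a TRAMP mouse prostate tumor. They carry a luciferase gene and the murine CSF-1 receptor (Fms), introduced by retroviral infection and selected by cell sorting, so all 3 groups express the receptor, and all were grown with dihydrotestosterone. Single-color arrays were made from 2 samples of unstimulated cells, 2 taken 24 h after recombinant mouse CSF-1 (100 ng/mL) was added and 2 taken after 48 h at the same dose. Both stimulated groups were compared with the same 2 control arrays. Levels are given as the log2 of the spot signal minus the log2 of its array's 75th percentile, so a level of 0 is the 75th percentile and a difference of 1 is a doubling.

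The first 24 h array lay on a slide and scan of its own, and the other 5 arrays shared another. Replicates correlated at 0.9944 to 0.9954 over all genes tested, and the share of spots well above background ran from 58.7% to 72.0% an array. Csf1r was well above background on all 6 arrays and differed from control by 0.22 at 24 h and -0.07 at 48 h on the log2 scale. Of 11 prostate epithelial markers 6 were tested, with Krt5, Krt8, Krt14, Krt18 and Pbsn among them, whereas Cdh1, Hoxb13 and Tmprss2 were well above background on 0 arrays and Epcam on 1. Of these 6 epithelial markers 0 were called at 24 h and 1 at 48 h, Krt8, which rose by 1.98 (log2 fold change, limma adjusted p = 0.011). Of 9 macrophage markers 7 were tested and Lyz2 was well above background on 0 arrays. Cd14 and Mrc1 were called higher at each time, Mrc1 by 4.27 and 3.56, and 0 were called lower. In mean, 6 of the 7 were higher at 24 h and 4 at 48 h. The summed level of the 7 (the log2 of the sum of their linear levels) ran from 5.32 to 5.48 in the controls. It was 5.05 to 5.33 at 24 h and 4.72 to 5.15 at 48 h. Most of this sum was Itgam, at 5.40 and 5.23 in the controls, with uncalled differences of -0.43 and -0.65. Of 5 fibroblast markers 4 were tested. Col1a1 (-0.88 and -1.19) and Col3a1 (-1.35 and -0.82) fell at both times, Dcn rose (2.08 and 2.78) and Pdgfra rose at 24 h (1.33), and their summed level was 7.05 to 7.09, then 6.15 to 6.19, then 5.81 to 6.07. Of 3 endothelial markers Cdh5 alone was called, higher by 3.87 and 3.97, with a summed level of 4.22 to 4.66, then 4.35 to 4.58, then 4.22 to 4.42. The part of these markers in the results was not tested.

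Oxidative phosphorylation makes ATP at the inner mitochondrial membrane. Complex I takes electrons from NADH and complex II from succinate, ubiquinone carries them to complex III and cytochrome c to complex IV, which reduces oxygen, and complex V uses the proton gradient built by complexes I, III and IV to make ATP. Most subunits are encoded in the nucleus and the rest in mitochondrial DNA, and several subunits of complexes IV and V come in isoforms made in different tissues. Nuclear respiratory factor 1 (NRF-1), GABP, YY1 and the estrogen-related receptors are transcription factors known to bind promoters of such genes.

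Promoters of 4 members are shown because they hold, or lack, the letters of these factors' motifs and belong to genes described below. Each is the 180 bases that end just before the start site, 5′ to 3′, from RefSeq on GRCm38.p6. Capitals mark matches to CCGGAAG (GABP and other ETS factors), GCATGCG (NRF-1), AAGATGG (YY1) or AAGGTCA (estrogen-related receptors) on either strand.
Cox6a1, complex IV, chr5:115348959-115349138, minus strand: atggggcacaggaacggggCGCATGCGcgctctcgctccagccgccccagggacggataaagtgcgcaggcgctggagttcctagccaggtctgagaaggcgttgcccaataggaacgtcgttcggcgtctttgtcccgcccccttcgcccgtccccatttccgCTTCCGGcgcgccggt
Uqcr11, complex III, chr10:80406822-80407001, minus strand: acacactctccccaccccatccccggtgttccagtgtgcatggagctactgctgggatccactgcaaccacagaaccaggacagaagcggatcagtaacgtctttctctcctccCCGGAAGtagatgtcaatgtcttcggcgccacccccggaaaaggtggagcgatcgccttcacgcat
Ndufb10, complex I, chr17:24724424-24724603, minus strand: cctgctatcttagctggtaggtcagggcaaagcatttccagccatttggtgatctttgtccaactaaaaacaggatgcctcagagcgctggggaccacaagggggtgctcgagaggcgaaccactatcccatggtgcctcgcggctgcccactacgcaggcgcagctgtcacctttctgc
Cox7a1, complex IV, chr7:30183991-30184170, plus strand: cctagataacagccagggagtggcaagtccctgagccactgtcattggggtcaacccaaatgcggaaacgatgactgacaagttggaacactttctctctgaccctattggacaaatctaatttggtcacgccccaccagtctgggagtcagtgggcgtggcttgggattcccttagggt

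RefSeq windows from 250 bases before to 50 after the start site were at hand for 72 members, 78 windows in all. The ETS core was in 17 of these 78 windows (21.8%), against 8.86% of the 32851 windows of all genes. The NRF-1 core was in 12 (15.4%, against 3.58%), the YY1 core in 13 (16.7%, against 6.34%) and the core of the estrogen-related receptors in 8 (10.3%, against 4.72%). At least 1 of the 4 motifs stood in 39 of the 78 windows and in 21.4% of all windows. Among the 13 windows of members called lower after CSF-1 (below), 1 held the ETS core, 1 the NRF-1 core, and 0 the YY1 core or the core of the receptors. The 2 were those of Ndufs8 and Ndufaf4. The windows of the uncalled Cox5a, Cox5b, Cox7a2 and Cox7b held none of the 4 motifs. Among other uncalled genes of complex IV, the windows of Cox6a1, Cox6b1 and Cox8a held the ETS core and that of Cox7c the YY1 core. That of Cox6a1 also held the NRF-1 core. The window of Uqcr11 also held the NRF-1 core, which its printed bases do not. Whether the motifs bear on the changes was not tested. A letter match is not a bound site, and the GCATGCG core read on both strands gives overlapping matches, which were counted once a window.

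After 24 h of CSF-1, 72 of the 87 genes had a lower mean than in unstimulated cells and 15 a higher one. Of the 24649 genes tested, 11210 had a lower mean and 13439 a higher one. The median log2 fold change of the 87 was -0.17, against 0.04 over all genes tested. The median was -0.090 without Control replicate 1 and -0.093 with quantile normalization, which brought the difference from the median of all genes from -0.21 to -0.07. Fits were made with limma on all 6 arrays, and a gene was called where its adjusted p (Benjamini-Hochberg, over all genes tested) was under 0.05. Of the 87 genes, 5 were called lower and 0 higher. Over all genes 5.98% were called lower and 8% higher, so the share of members called lower, 5.75%, was at the background. Both 24 h arrays lay below both controls for 52 members and above them for 7, against 27.7% and 31.2% of all genes. The shifts were small, from -0.62 for Atp5c1 to 0.65 for Cox6a2 and 0 members passed a 2-fold change with an unadjusted p under 0.05, a rule that 7.66% of all genes passed. At an unadjusted p under 0.05 alone, 22 members were lower (14.2% of all genes were) and 1 higher (17.1%). Most members are bright. Over the 3167 genes with a mean level of at least 3.78 the median was -0.10, and 6.06% were called lower. This background was taken after the values were seen.

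After 48 h, 66 members had a lower and 21 a higher mean, against 13592 and 11057 of the 24649 genes tested. The median of the members was -0.19, against -0.04 over all genes. Without Control replicate 1 it was -0.10, and with quantile normalization the difference from all genes went from -0.14 to -0.07. Here 12 members (13.8%) were called lower and 1 higher, with 7.37% of all genes called lower and 6.56% higher. Both 48 h arrays lay below both controls for 57 members and above them for 5, against 35% and 23.8% of all genes. Values ran from -0.74 for Ndufa5 to 1.06 for Cox7a1, and Cox7a1 was the only member past the 2-fold rule, which 6.46% of all genes passed. At an unadjusted p under 0.05 alone, 33 members were lower and 1 higher, with 18.8% and 12.1% of all genes. Over the 3167 bright genes the median was -0.18 with 9.22% called lower, beside -0.19 and 13.8% for the members. The 5 genes called lower at 24 h (Ndufa5, Ndufa10, Ndufb10, Ndufs8 and Atp5c1) were all among the 12 at 48 h, but the 2 times share the control arrays.

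These calls depended on all 6 arrays and on the spread pooled over them. With any 1 array left out, 0 members were called lower at 24 h and 0 or 1 at 48 h, and with only the compared groups in the fit 0 and 1. As a measure of scale, the 2 control arrays themselves differed by a median of 0.11 over the members.

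**Figure D1:**
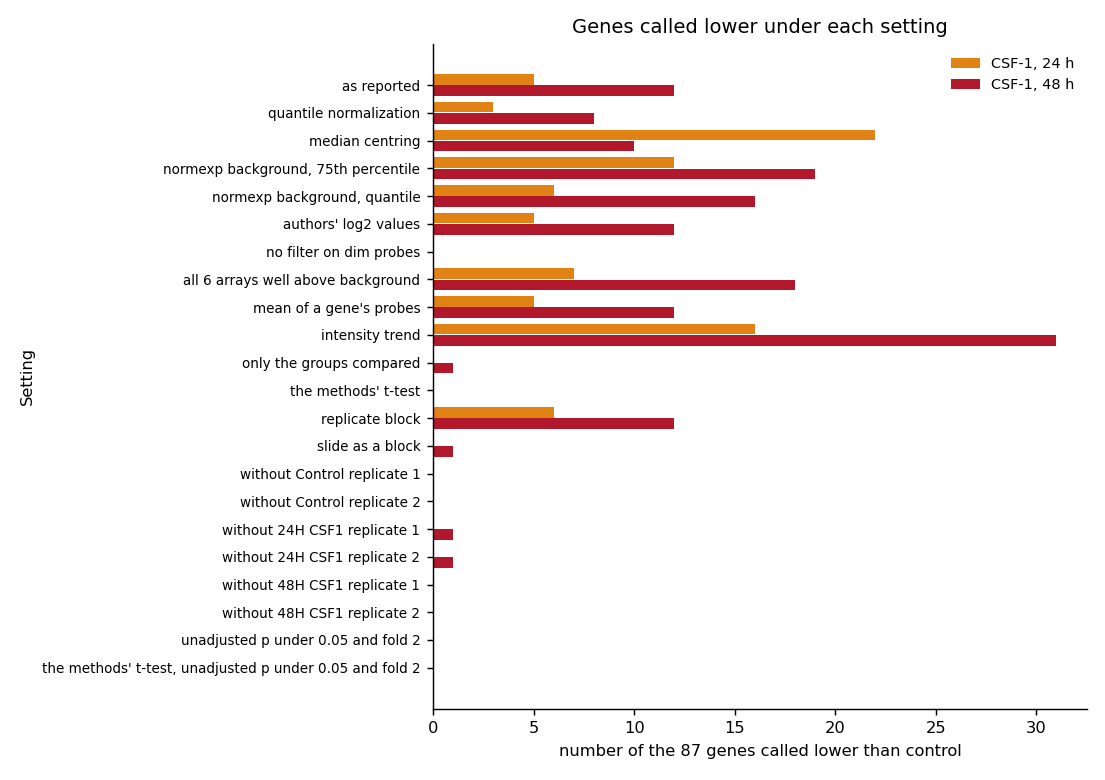
Number of the 87 genes called lower than control at 24 h and 48 h under each setting; bars start at 0. As reported the counts are 5 and 12; they reach 22 at 24 h with median centring and 31 at 48 h with an intensity trend, and fall to 0 or 1 where an array is left out.

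**Figure D2:**
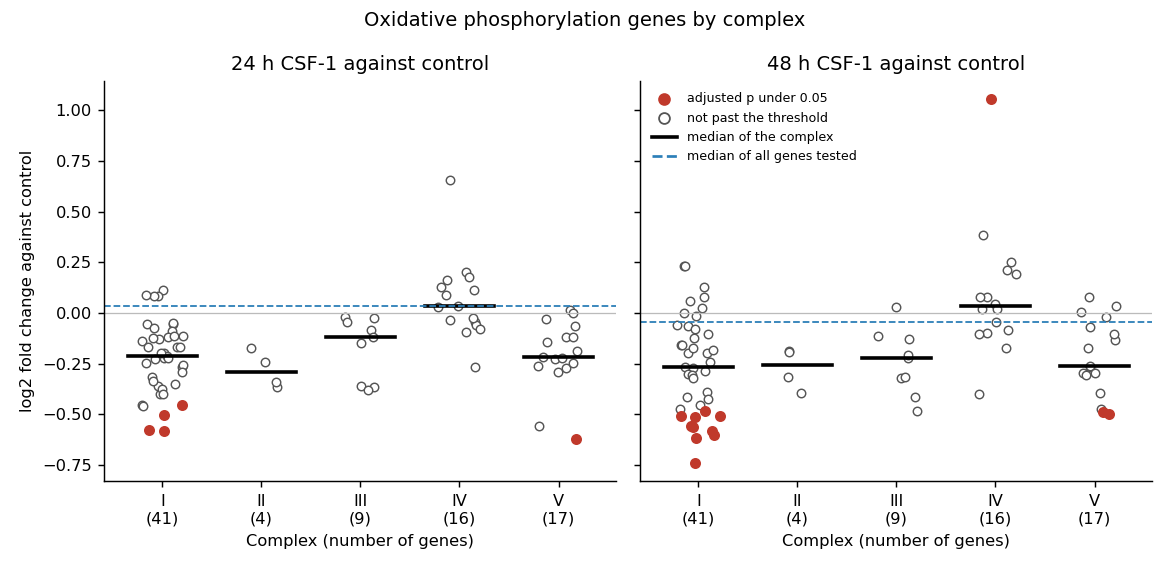
Log2 fold change of each of the 87 genes against control at 24 h (left) and 48 h (right), by complex. Filled points have an adjusted p under 0.05 (limma), black bars are medians, and the dashed line is the median of all genes tested; complexes I, II, III and V have medians below that line at both times, while the median of complex IV is close to it at 24 h and above it at 48 h.

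The complexes differed in where their genes lay. The median log2 fold change at 24 h and 48 h was -0.21 and -0.27 for complex I, -0.29 and -0.25 for complex II, -0.12 and -0.22 for complex III, -0.22 and -0.26 for complex V, and 0.03 and 0.03 for complex IV. Without Control replicate 1 the median of complex I at 48 h was -0.15, and at 24 h those of complexes II, III and V were -0.19, -0.05 and -0.14. Without Control replicate 2 that of complex III at 24 h was -0.19, and those of complex IV were below 0, at -0.03 and -0.03. Relative to the median of all genes, complex I lay at -0.25 and -0.23, and complex IV at -0.00448 and 0.08. Array by array, the median of complex I minus that of complex IV, each taken from the gene's control mean, was -0.01 and 0.01 in the controls, -0.18 and -0.25 at 24 h and -0.32 and -0.20 at 48 h. All 4 stimulated arrays were thus below both controls in this difference, which was not tested. The sign of the complex IV median depended on the scaling: with each array centred on its median spot it was -0.25 at 24 h and -0.07 at 48 h, when the median of all genes was itself -0.25 and -0.14.

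**Figure D3:**
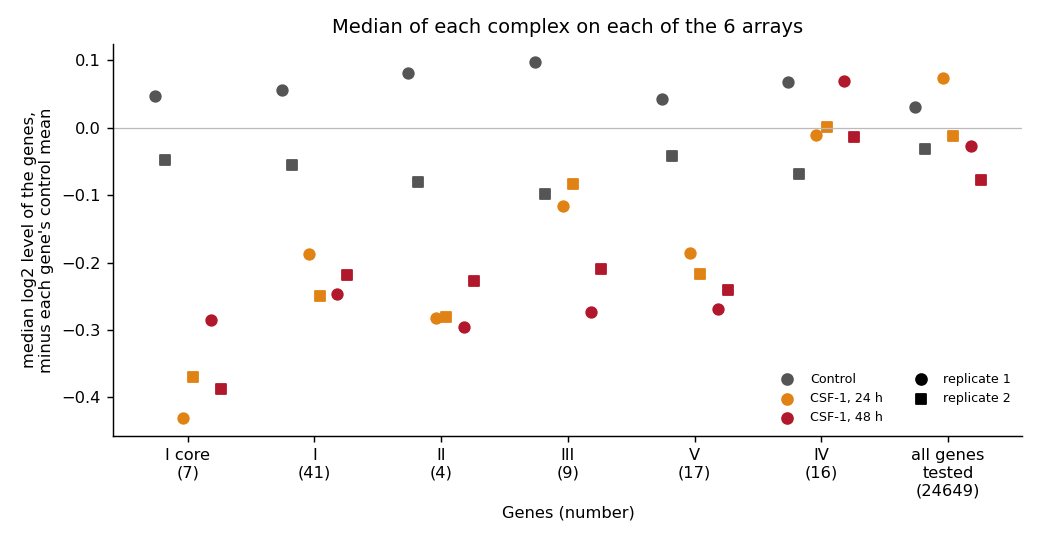
Median over the genes of each complex of the log2 level minus the gene's own control mean, on each of the 6 arrays (circles replicate 1, squares replicate 2). For complexes I, II and V and the core subunits of complex I all 4 stimulated arrays lie below both controls, and for complex IV the stimulated arrays lie within the range of the controls or just above it.

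In complex I, 37 of 41 genes had a lower mean at 24 h, 4 of them called, and 34 at 48 h, 10 of them called; 0 were called higher at either time. The shares called lower, 9.76% and 24.4%, stand beside 5.98% and 7.37% of all genes. The 7 core subunits, which hold the redox centres and are shared with the bacterial enzyme, had the lowest medians of the groups within this complex at 24 h, -0.40, with -0.32 at 48 h. The 10 Ndufb subunits, which sit in the membrane arm, were lower in mean without exception at both times, with medians of -0.27 and -0.36. The 13 accessory Ndufa subunits had medians of -0.17 and -0.16, with 12 and 9 of them lower in mean.

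Among the core subunits Ndufs8, which carries iron-sulfur clusters near the quinone site, had levels of 2.63 and 2.45 in the controls, 2.01 and 1.91 at 24 h and 1.88 and 1.97 at 48 h. All 4 stimulated arrays were below both controls. It fell by 0.58 ± 0.12 (SE, 2 arrays a group) at 24 h and by 0.62 at 48 h on the log2 scale (limma adjusted p = 0.038 and 0.033). Ndufs1, the large iron-sulfur subunit, read 3.46 and 3.53 in the controls, 3.06 and 3.12 at 24 h and 2.94 and 3.03 at 48 h. It was called at 48 h, with a log2 fold change of -0.51 (limma adjusted p = 0.038, and 0.067 for -0.40 at 24 h). Ndufv2, which with Ndufv1 forms part of the NADH-binding module, differed by -0.46 at 24 h and fell by 0.51 at 48 h (limma adjusted p = 0.061 and 0.047). Of the uncalled core subunits, Ndufs3 had values of -0.12 and -0.01, Ndufs7 of -0.45 and -0.31 and Ndufv1 of -0.20 and -0.32, with adjusted p from 0.060 up. The arrays of Ndufs3 at 48 h overlapped those of the controls.

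Among the accessory subunits the lowest gene of the whole set at 48 h was Ndufa5, a subunit of the peripheral arm, whose probe lies at chr6:24468666-24468725 (mm9, minus strand). Its level was 5.33 and 5.20 in the controls, 4.77 and 4.75 at 24 h and 4.51 and 4.54 at 48 h. The 3 groups did not overlap, with 48 h the lowest. It fell by 0.51 ± 0.11 at 24 h and by 0.74 ± 0.11 at 48 h (limma adjusted p = 0.039 and 0.016), or changes of -29.6% and -40.2% in linear signal. A second probe of Ndufa5 gave -0.49 and -0.73.

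Ndufb10, of the membrane arm, whose promoter above holds none of the motifs, read 6.03 and 5.99 in the controls, 5.45 and 5.42 at 24 h and 5.47 and 5.43 at 48 h. It fell by 0.58 ± 0.10 at 24 h and by 0.56 at 48 h (limma adjusted p = 0.025 and 0.027), with stimulated arrays of both times at about the same level. Ndufa10, another accessory subunit, was at 2.36 in both controls, at 1.93 and 1.88 at 24 h and at 1.76 and 1.84 at 48 h. It fell by 0.45 and 0.56 (limma adjusted p = 0.047 and 0.028). Called at 48 h alone were Ndufab1, the mitochondrial acyl carrier protein, with -0.49, and Ndufb3, with -0.51 (limma adjusted p = 0.040 and 0.038); at 24 h they had -0.35 and -0.34. A call at 1 time only says nothing of how the times differ, which is taken up below. The highest gene of the complex was Ndufa1, with 0.11 and 0.23 (limma adjusted p = 0.559 and 0.233).

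The name rule also takes in 4 assembly factors of complex I, which help build it and are not part of the finished enzyme. Ndufaf2 read 3.31 and 3.29 in the controls, 2.83 and 2.97 at 24 h and 2.63 and 2.77 at 48 h. Ndufaf4 read 2.55 and 2.60, then 2.15 and 2.29, then 2.03 and 1.95. Both were below the controls on all 4 stimulated arrays and were called at 48 h, with -0.60 and -0.59 (limma adjusted p = 0.032 and 0.031; 0.083 and 0.097 at 24 h). Ndufaf1 and Ndufaf3 were within 0.13 of control at both times. Ndufa4, named for complex I but found in complex IV, had 0.08 and -0.07. Its paralog Ndufa4l2, not a member, was well above background on both 24 h arrays and on none of the others, at -3.76 in mean against a measured -4.65 in the controls. It was tested through the 24 h arrays alone, and the sign of its difference turned with normexp and quantile normalization (-0.046), so no fold is given.

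**Figure D4:**
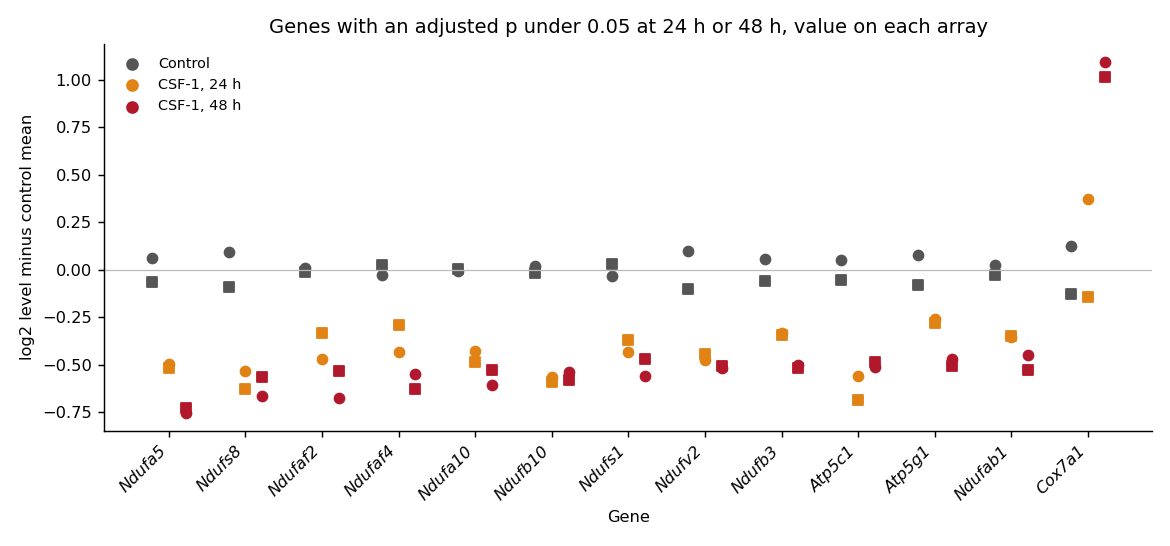
Log2 level minus the control mean, on each array, of the 13 genes with an adjusted p under 0.05 (limma) at 24 h or 48 h; circles are replicate 1 and squares replicate 2. In the 12 genes called lower all 4 stimulated arrays lie below both controls, and in Cox7a1 only the 48 h arrays stand clear of the controls.

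All 4 genes of complex II, succinate dehydrogenase, were below both controls on all stimulated arrays, and 0 were called. Of all genes 14% were called at 24 h and 13.9% at 48 h, in either direction. Over all genes both arrays lay below both controls for 27.7% at 24 h and 35% at 48 h, and both times share the control arrays. The catalytic subunits Sdha and Sdhb had log2 fold changes of -0.37 and -0.32, and of -0.24 and -0.19, at 24 h and 48 h. The membrane anchors Sdhc and Sdhd had -0.17 and -0.19, and -0.34 and -0.40. The lowest adjusted p of the complex was 0.114 at 24 h and 0.103 at 48 h (limma).

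In complex III, 9 of 9 genes had a lower mean at 24 h and 8 at 48 h, and 0 were called. The core proteins Uqcrc1 and Uqcrc2, which do not themselves carry electrons, had -0.37 and -0.32, and -0.38 and -0.42. Cyc1, cytochrome c1, which hands electrons to cytochrome c, read 5.77 and 5.53 in the controls, 5.32 and 5.26 at 24 h and 5.18 and 5.16 at 48 h. Its difference was -0.36 at 24 h and -0.49 at 48 h (limma adjusted p = 0.119 and 0.062), with no overlap of stimulated and control arrays. The Rieske iron-sulfur protein Uqcrfs1 had -0.12 and -0.32. The 5 small accessory subunits lay closer to control, with medians of -0.05 and -0.13. Among them were Uqcr11, whose promoter is shown above (-0.09 and -0.13), and Uqcrh, the highest of the complex (-0.05 and 0.03).

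In complex V, the ATP synthase, 15 of 17 genes had a lower mean at 24 h and 14 at 48 h. Called lower were 1 and 2 (5.88% and 11.8%, against 5.98% and 7.37% of all genes), so the share at 24 h was at the background. Atp5c1, the gamma subunit that turns inside the catalytic head, read 6.06 and 5.95 in the controls, 5.45 and 5.32 at 24 h and 5.49 and 5.52 at 48 h. No stimulated array reached a control. It fell by 0.62 ± 0.11 at 24 h, the lowest of all 87 genes at that time, and by 0.50 at 48 h (limma adjusted p = 0.026 and 0.045). The catalytic beta subunit Atp5b and the alpha subunit Atp5a1 had -0.29 and -0.30, and -0.22 and -0.27, without overlap with the controls and without a call.

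The c ring, which turns as protons pass, is coded by 3 genes that give the same mature protein. Atp5g1 read 7.15 and 6.98 in the controls, 6.80 and 6.78 at 24 h and 6.60 and 6.56 at 48 h. It was called at the later time, with -0.49 (limma adjusted p = 0.047; -0.27 and 0.177 at 24 h). Atp5g2 and Atp5g3 had -0.19 and -0.25 at 24 h and -0.30 and -0.31 at 48 h, uncalled, again with no overlap with the controls. The 3 small membrane subunits Atp5j2, Atp5k and Atp5l lay near control, with medians of -0.03 and 0.00262. The name rule also takes Atp5s and Atp5sl, which RefSeq now lists as Dmac2l and Dmac2 and which are not subunits; Atp5sl was the highest gene of the group, with 0.00035 and 0.08. Without them the medians of complex V were the same, -0.22 and -0.26.

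Complex IV, cytochrome c oxidase, differed from the others in its means. Of its 16 genes 7 had a lower and 9 a higher mean at 24 h, and 6 and 10 at 48 h. As in complexes II and III, 0 were called lower at either time, against 5.98% and 7.37% of all genes. The 10 subunits in the isoform made in most tissues had medians of -0.03 and -0.01. Cox4i1, the general form of subunit IV, had 0.09 and 0.04, Cox5a -0.04 and -0.05, and Cox5b -0.06 and -0.08, with adjusted p of at least 0.645 (limma). Cox4nb, which matches the name rule alone and is now called Emc8, was the lowest of the group, with -0.27 and -0.40. Counting only the general isoforms and Ndufa4 gave medians of -0.02 and -0.05 for complex IV.

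The 1 member that rose was Cox7a1, the form of subunit VIIa made in heart and skeletal muscle. Its probe, of 60 bases, is read from coding sequence across an exon junction at chr7:30970337-30970948 (mm9, plus strand), and its sequence as deposited is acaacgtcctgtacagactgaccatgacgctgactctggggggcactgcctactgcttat. The level was -2.24 and -2.49 in the controls, -1.99 and -2.51 at 24 h and -1.27 and -1.35 at 48 h, where the signal was well above background on every array. The 24 h arrays fell on either side of the controls, and both 48 h arrays were above the other 4. The log2 fold change was 0.11 ± 0.20 at 24 h and 1.06 ± 0.20 at 48 h (limma adjusted p = 0.760 and 0.031), a 2.08-fold level at 48 h. The call was lost without either control array or without either 48 h array, with a highest adjusted p of 0.155. Of 7 muscle markers 4 were tested, and Actc1, Myh1 and Myh4 were well above background on 0 arrays. Tnnt3 was called higher at 24 h (0.85, limma adjusted p = 0.039) and 0 were called at 48 h. In mean all 4 were higher at 24 h, by 0.43 to 0.85, and 3 of them at 48 h, with medians of 0.61 and 0.42.

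Of the other genes of the same subunit, the general form Cox7a2 had -0.03 and -0.10, and Cox7a2l, a factor that joins complexes III and IV into supercomplexes, had 0.16 and 0.25, above both controls on all 4 arrays but uncalled. Cox6a2, the heart and muscle form of subunit VIa, read -3.07 and -3.49 in the controls, -2.77 and -2.48 at 24 h and -3.01 and -3.13 at 48 h. Its 24 h arrays were above both controls, whereas 1 of its 48 h arrays lay between them, with log2 differences of 0.65 and 0.21 (limma adjusted p = 0.078 and 0.507). The general form Cox6a1, with the NRF-1 and ETS letters in the promoter above, had 0.04 and 0.08.

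Cox4i2, the lung form of subunit IV, had 0.13 and 0.38 with 1 SE of 0.24, and its arrays overlapped the controls at both times. Cox6b2, the testis form of subunit VIb, had 0.20 and 0.08, and Cox6b1 0.03 and 0.02. Cox7b and Cox8a, whose paralogs were left out as too dim, had -0.10 and -0.10, and -0.08 and 0.02. Cox6c, of which mice have a single form, was among the highest at 24 h, with 0.18 and then 0.19. Except for Cox7a1 at 48 h, then, 0 of the isoforms of complex IV were called at either time.

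**Figure D5:**
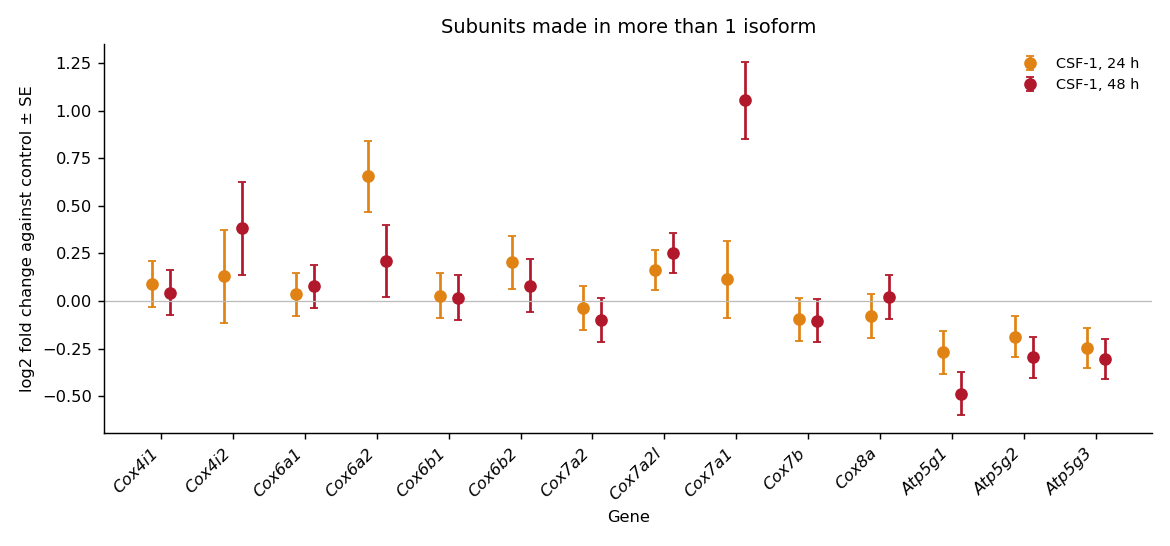
Log2 fold change against control, with its SE (limma, 2 arrays a group), of the members made in more than 1 isoform, at both times. Cox7a1 at 48 h (1.06) and Cox6a2 at 24 h (0.65) stand above the general isoforms of complex IV, and the 3 c ring genes lie below 0 at both times.

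When the stimulated groups were set against each other, 0 members were called in either direction, as were 0 of all 24649 genes (0% lower and 0% higher). At an unadjusted p under 0.05, 0 members were lower and 2 higher at 48 h, against 9.22% and 4.37% of all genes, and 0 passed the 2-fold rule that 2.27% of all genes passed. These were Cox7a1, higher by 0.94 at 48 h than at 24 h (unadjusted p = 0.0046 in limma, adjusted p = 0.176), and Ndufv3, a small subunit of the NADH module. Ndufv3 read 5.73 and 5.86 in the controls, 5.61 and 5.54 at 24 h and 6.09 and 5.97 at 48 h, a difference of 0.46 between the times (limma adjusted p = 0.211). Against control this probe had -0.22 at 24 h and 0.23 at 48 h, and a second probe of Ndufv3 had 0.0051 and 0.34. The lowest differences from 24 h to 48 h were those of Cox6a2 (-0.44), Ndufa5 (-0.24) and Ndufaf4 (-0.23), with adjusted p of 0.389, 0.418 and 0.453 (limma). The median over the members was -0.03, and over all genes -0.08.

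Among genes that serve the chain without being in the list, those for electron carriers and links to it had the largest share called. Of 17 such genes tested 6 were called lower at 24 h and 9 at 48 h, with 0 called higher and medians of -0.37 and -0.50. The shares called lower were 35.3% and 52.9%, against 5.98% and 7.37% of all genes. In mean, 15 of the 17 were lower and 2 higher at each time. Cycs, cytochrome c, went the other way and was uncalled, with 0.44 and 0.37 (limma adjusted p = 0.114 and 0.165). It read 6.04 and 5.89 in the controls, 6.31 and 6.50 at 24 h and 6.20 and 6.47 at 48 h. Coq2 and Pdss2, of ubiquinone synthesis, fell by 0.92 and 1.07 at 24 h and by 0.77 and 0.67 at 48 h (limma adjusted p = 0.011, 0.006, 0.019 and 0.020). Etfb, which passes electrons from fatty acid oxidation to ubiquinone, read 5.66 and 5.46 in the controls, 4.77 and 4.72 at 24 h and 4.78 and 4.77 at 48 h. It fell by 0.81 and 0.78 (limma adjusted p = 0.015 and 0.017).

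Of 11 other assembly genes of complex I, 2 were called lower at 24 h and 4 at 48 h (18.2% and 36.4%, against 5.98% and 7.37% of all genes), with 0 higher. Ecsit, called at both times, fell by 0.81 and 0.95 (limma adjusted p = 0.018 and 0.013). Of 29 assembly genes of complexes II to V, 2 and 3 were called lower (6.90% and 10.3%), the first of these near the background. Sdhaf1, which matures the iron-sulfur subunit of complex II, fell by 0.77 and 0.81 (limma adjusted p = 0.023 and 0.021). Of 16 genes of the tricarboxylic acid cycle 1 and 2 were called lower (6.25% and 12.5%) and 0 higher, the first of these at the background. Suclg2, a succinyl-CoA ligase subunit, fell by 0.71 and 0.66 (limma adjusted p = 0.021 and 0.026). The 12 mitochondrially encoded subunits on the array had medians of -0.07 and -0.28, and 0 were called (0 and 2 lower at an unadjusted p under 0.05 in limma).

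Of 24 regulators of mitochondrial biogenesis tested, 3 were called lower and 2 higher at 24 h, and 4 lower and 1 higher at 48 h. The shares called lower were 12.5% and 16.7%, against 5.98% and 7.37% of all genes. Those called higher, 8.33% and 4.17%, were at or under the 8% and 6.56% of all genes. Ppargc1a, the coactivator PGC-1alpha, read -2.34 and -2.15 in the controls, -3.09 and -3.02 at 24 h and -2.67 and -2.41 at 48 h. It fell by 0.81 at 24 h (limma adjusted p = 0.023) and had -0.30 at 48 h (adjusted p = 0.229). Esrra, which codes for an estrogen-related receptor, rose by 0.78 at 24 h and had 0.40 at 48 h (limma adjusted p = 0.014 and 0.073), and Ppard rose by 1.50 and 0.90 (limma adjusted p = 0.011 and 0.038).

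Nrf1 had -0.25 at 24 h and fell by 0.46 at 48 h (limma adjusted p = 0.170 and 0.046), while Tfam, which packs mitochondrial DNA, had -0.32 and -0.45 and was uncalled (limma adjusted p = 0.119 and 0.053). Tfb2m, of mitochondrial transcription, fell by 0.81 and 0.96, and Polg2, of mitochondrial DNA replication, by 0.67 and 0.64 (limma adjusted p = 0.018, 0.012, 0.027 and 0.031). Gabpa had -0.25 and -0.28, Pprc1 -0.34 and -0.21 and Yy1 -0.03 and -0.20, all uncalled. Ppargc1b and Esrrg were well above background on 0 arrays. Each call given here for these further genes was lost under at least 1 of the alternative settings.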

How the data were processed

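N18-Fms samples were grouped by their labels, which give 24 h and 48 h (the study's methods text gives 12 h and 24 h). Per the labels the RNA came from 2 independent experiments; they do not tie an array to an experiment, so p-values measure the spread between these samples, which may be technical. The authors deposited, per array, the output of Feature Extraction 11.0.1.1 on a mouse array annotated to mm9; in these files, as deposited by the authors, the signal intensity had been background-subtracted by the software and was linear and not normalized between arrays. The number of arrays limits the precision. A second file from the authors holds log2 values of 44569 probes, used as an alternative, each probe with a baseline of its own. The study compared groups in other software, whose normalization is not given in the sources used here.

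Here, outlier spots were left out, repeated spots averaged, and log2 signal taken relative to each array's 75th percentile. A gene was read by its brightest probe among those well above background on all arrays, and tested if well above background on both arrays of a group. limma 3.58.1 in R 4.3.3 was fitted to 24649 genes and all 6 arrays, with an adjusted p threshold of 0.05, and was tested on simulated data. An exact test of 2 against 2 arrays cannot go below p = 0.333, and none was used. Of the members, 83 were matched to RefSeq by symbol and 4 by accession; 26 have another probe well above background, which differed by at most 0.23 from the one used, with 5 opposite signs at 24 h and 3 at 48 h. No value is given for Cox7b2, Cox8b and Cox8c, which were too dim to be tested. Single values of a few other genes are not reported here.

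Named were the called members with the largest changes (up to 6 a direction and comparison, or the top 3 where fewer than 3 were called), the lowest and highest of each complex, isoform families, core subunits, 8 regulators, and up to 3 genes a list called at both times. The other members described were named after their values were seen, as were Cycs, Itgam and Kdr. The members and lists were chosen with earlier results of these data known. Alternatives were other normalizations and background corrections, probe filters, probe means, an intensity trend, the fit on the groups compared alone, a t-test, replicate and slide blocks, the study's threshold, and leaving out each array. The division of subunits by role alone was added after seeing the data.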

Additional observations from a re-analysis of the deposited data

Results flagged for a closer look

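In 3 members every array of one time lay above both controls and every array of the other time below them. Among all genes tested, both arrays lay below both controls for 27.7% at 24 h and 35% at 48 h. They lay above both controls for 31.2% at 24 h and 23.8% at 48 h. The share of all genes on opposite sides at the different times was not counted, so the 3 members have no background to be set against. Ndufv3, by the probe used, was below the controls at 24 h and above them at 48 h, with a difference of 0.46 between the times (limma adjusted p = 0.211). That probe had -0.22 at 24 h and 0.23 at 48 h. A second probe of Ndufv3 had 0.0051 and 0.34, so its mean at 24 h was not below control. Ndufaf1 and Ndufa4 were above at 24 h and below at 48 h, with differences of -0.16 and -0.15 (limma adjusted p = 0.550 and 0.580). None of the 3 differences passed the test of the times against each other, and the controls are shared by both comparisons.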

How the results depend on the processing

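Members called lower, given for 24 h and then 48 h, were 5 and 12 as reported. With median centring they were 22 and 10, with normexp and the 75th percentile 12 and 19, with an intensity trend 16 and 31, and with quantile normalization 3 and 8, of which 2 and 8 were among those reported. They were 0 and 0 without the filter on dim probes, by the t-test of the methods after Benjamini-Hochberg adjustment, and by an unadjusted p under 0.05 with a 2-fold change in limma or that t-test. With only the groups compared, or the slide as a block, they were 0 and 1. Leaving out 1 array at a time gave 0 to 0 at 24 h and 0 to 1 at 48 h, and for members called higher at 48 h, 0 to 1. Cox7a1, the 1 member called higher at 48 h, was uncalled (0 called) without the filter and by the t-test, and between the times 1 member was called higher with normexp and quantile normalization. The cause of these differences was not tested.

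Median centring moved the median of all genes to -0.25, -0.14 and 0.10 (24 h, 48 h and 48 h against 24 h) and the members to -0.45, -0.29 and 0.15. Complex I was then at -0.50, -0.37 and 0.14, complex II at -0.57, -0.35 and 0.20, complex III at -0.40, -0.32 and 0.11, complex IV at -0.25, -0.068 and 0.18, and complex V at -0.50, -0.36 and 0.18. Relative to all genes the members stayed at -0.21 at 24 h and -0.14 at 48 h, and at -0.07 and -0.07 with quantile normalization. Over all genes the share of calls that were lower also moved with centring, from 1474 of 3446 to 3706 of 4899 at 24 h. With quantile normalization the medians at 24 h and 48 h were -0.093 and -0.13 (members), -0.15 and -0.21 (complex I) and -0.14 and -0.16 (complex V), and with normexp and quantile -0.094 and -0.13, -0.15 and -0.20, and -0.13 and -0.16. By role alone, complex IV at 48 h was at -0.047.

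Leaving out 1 array gave medians at 24 h and 48 h of -0.23 to -0.090 and -0.26 to -0.10 (members), -0.25 to -0.16 and -0.34 to -0.15 (complex I), -0.30 to -0.19 and -0.30 to -0.20 (complex II), -0.19 to -0.05 and -0.32 to -0.19 (complex III), -0.034 to 0.093 and -0.028 to 0.11 (complex IV) and -0.24 to -0.14 and -0.29 to -0.21 (complex V). Of the values of named genes, Ndufa4l2 at 24 h alone was called and turned sign, at -0.046 with normexp and quantile. Of 759 values of called genes 325 lost the call, each of the 40 called results at least once, and of 3000 values of uncalled genes 62 gained one and 150 changed sign.

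Replicate numbers were shared by the groups, and same-numbered samples deviated together with correlations of 0.13, 0.09 and 0.20 over all genes and 0.26, 0.10 and 0.58 over the members. The labels do not say what the number marks, and the samples were not taken as pairs. With the number as a block, 6 and 12 members were called lower, 4 and 11 of them among those reported, 1 higher at 48 h, and all medians were the same.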

Other observations

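Beside the genes of the chain, other gene groups named by their symbols were looked at after the values had been seen, so they support nothing and are given as descriptions. Of 75 mitochondrial ribosomal protein genes tested, 8 were called lower at 24 h and 24 at 48 h, with 0 called higher and medians of -0.30 and -0.41. Of 81 cytosolic ribosomal protein genes, 1 and 2 were called lower and 0 higher, with medians of -0.13 and -0.22. Of 19 glycolysis genes, 0 were called lower and 3 higher at each time, with medians of 0.03 and 0.16. Over all genes 5.98% and 7.37% were called lower, and 8% and 6.56% higher (limma).

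Bright probes as a whole were lower after CSF-1 on this scale. The 3167 genes with a mean level of at least 3.78, where the brightest 3 in 4 members lie, had medians of -0.10 and -0.18, beside -0.17 and -0.19 for the members. Of these genes 6.06% were called lower at 24 h and 9.22% at 48 h, beside 5.75% and 13.8% of the members. How far the level of a probe bears on the members' values was not tested.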
